A study of Rattus norvegicus with 8 samples.

Results

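The cytosolic ribosomal protein genes encode the protein parts of the ribosome that works in the cytoplasm. They were taken by name from the array annotation: every non-control probe whose gene name was Rpl or Rps followed by a number, with a few permitted suffixes, together with Rplp0, Rplp1, Rplp2 and Rpsa, and without the Rps6k kinases. This gave 89 genes on 161 probes, of 26214 genes on 30367 probes. The large subunit had 55 members and the small subunit 34, with copies that carry a suffix such as Rpl22l1 or Rps27l counted in their subunit. The name rule used no measured value.

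RNA came from the hippocampus of male Sprague Dawley rats. One group breathed normal air (normoxia), and 3 groups were kept in a decompression chamber at an air pressure equal to 25000 ft, with oxygen at 8% (hypobaric hypoxia), and are named here by day 1, 3 or 7. For the day 7 group the titles and the exposure field differ, the latter giving 5 days. Each group had 2 single-colour Agilent arrays, 8 in all on 1 slide, and since the labels do not say whether both came from different animals, the p-values below reflect the spread between arrays alone, which may be technical. Tissue was taken whole, so fewer cells of a type and less RNA per cell cannot be told apart.

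Each ribosome joins a large subunit, which forms peptide bonds, to a small subunit, which reads the messenger RNA. Their proteins are needed in equal numbers, so their genes are usually transcribed at a high and matched rate, and their messenger RNAs begin with a pyrimidine run (the TOP motif) through which the mTOR kinase controls their translation. Protein synthesis is among the costliest activities of a cell, and mTOR signalling is known to fall when oxygen is short.

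To show the region that carries the TOP motif, the 30 bases before and the 10 bases from the start site are printed 5′ to 3′ from the RefSeq promoter table of the GRCr8 rat build. The capitals mark CTTTC or CTTTT. The first 4 promoters hold such a run within 20 bases of the start, and that of Rpl22l1, a copy of Rpl22, does not. A run that lies before the start, as in Rpsa, is outside the message as annotated, so a match need not be the TOP motif. Rpl36 and Rpl11, among the largest rises, also lack such a run there, and Rpl10a, which holds one, fell on day 1. Whether these runs go with the course of the members was not tested. Rpl19 is at chr10:83519034-83519073 (plus strand), Rpl22 at chr5:168117931-168117970 (plus), Rpsa at chr8:128728849-128728888 (plus), Rpl10a at chr20:6390503-6390542 (plus) and Rpl22l1 at chr2:113683166-113683205 (plus).
Rpl19: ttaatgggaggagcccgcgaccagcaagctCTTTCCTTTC
Rpl22: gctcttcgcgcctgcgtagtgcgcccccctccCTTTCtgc
Rpsa: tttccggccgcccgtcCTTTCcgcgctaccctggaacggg
Rpl10a: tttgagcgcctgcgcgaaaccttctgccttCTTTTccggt
Rpl22l1: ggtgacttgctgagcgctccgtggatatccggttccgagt
Of 72 promoters of 71 members in that table, 40 (55.6%) held CTTTC or CTTTT within 20 bases on either side of the start. This was counted on the strand that reads as the message does, where the share of all 33469 promoters was 9.27%. On the opposite strand, the shares were 2.78% and 9.30%. A match is a description of these letters and not a measured site.

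The arrays measured each gene with 60-base probes, and most members had more than 1, which shows how a value depends on where the probe lies. The probes below are printed as the array files give them, on rat build rn4, for 2 genes whose probes moved apart. The whole upstream probe of Rps2, at chr10:13975666-13975804, starts at base 182 of its transcript, and that of Rpl37a, at chr5:146450833-146450892, at base 34. Of the downstream probes, at chr10:13977131-13977190 and chr5:146450567-146450626, 30 bases are shown, with the polyadenylation signal AATAAA in capitals.
Rps2 upstream: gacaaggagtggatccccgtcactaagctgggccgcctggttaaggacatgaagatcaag
Rps2 downstream: gtttttatacaagaaaAATAAAtgaattaa
Rpl37a upstream: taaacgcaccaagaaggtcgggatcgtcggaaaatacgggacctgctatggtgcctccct
Rpl37a downstream: tgcctggtctgcAATAAAtgggctaattta
The signal was present in 41 of 161 member probes (25.5%), against 8.99% of the 24517 other probes that were kept. Probes of ribosomal protein genes can also share sequence with copies elsewhere in the genome. Of the member probes, 12, on 11 genes, had a run of 40 bases in common with a probe of another name, and near-identical copies that the array does not hold could add to any of them.

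All 89 members passed the filter on dim probes, 88 were well above background on all 8 arrays, and no member probe was saturated. Levels are given as log2 processed signal relative to the 75th percentile of the same array, and 1 probe, the brightest, stands for a gene. Of the 213 brightest of 21296 tested genes, 29 were members, and 78 members were in the brightest 10%. Bright probes moved together in these data. The changes of the family and of some single genes are therefore set beside those of neighbours. Neighbours here are the 200 other tested genes nearest to a member in mean level. The match is loose for the brightest members, which share dimmer neighbours up to 1.77 log2 away, and 117 of the 4016 distinct neighbours are themselves described as ribosomal proteins. A change is the log2 difference between 2 group means, given ± SE from 2 arrays in each group, and a gene is called at an adjusted p under 0.05 in limma over all 21296 genes.

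Some facts of the arrays bear on all that follows. Spots well above background made up 84.5% to 85.6% in normoxia, 80.6% to 82.1% on day 1, 75.7% on both day 3 arrays and 72.6% to 77.0% on day 7. Normoxia and day 1 lay in slide row 1 and the other groups in row 2, so row and group cannot be told apart for day 3 or day 7 against normoxia or for day 3 against day 1, while day 1 against normoxia and day 7 against day 3 were compared within a row. Of 10 markers of hippocampal neurons, 9 were well above background on all arrays, and Prox1, which defines dentate granule cells, was not. Against normoxia 2, 6 and 4 of these 10 were called higher on days 1, 3 and 7 and 3, 0 and 3 lower. Their median changes were -0.14, 0.25 and -0.02. Markers of neighbouring tissue moved between groups as well. All 10 choroid plexus markers were called lower on day 1 and on day 7, with summed levels of 6.91 to 7.03 in normoxia, 0.83 to 0.88 on day 1, 7.33 to 7.44 on day 3 and 3.29 to 3.40 on day 7. All 11 tested striatal markers were called higher on day 1, with summed levels of 5.74 to 5.75, against 2.63 to 2.99 on the other arrays. The 8 tested markers of red blood cells and reticulocytes were called higher in all 3 comparisons with normoxia, with summed levels of 6.86 to 7.00 in normoxia, 7.73 to 7.76, 8.29 to 8.40 and 8.66 to 8.68 on days 1, 3 and 7. Of 7 tested endothelial markers 4 were called higher in each comparison with normoxia, with 1, 1 and 2 lower on days 1, 3 and 7, and of 8 microglial markers 4, 1 and 2 were higher and 0, 4 and 5 lower. The part of these markers in the results below was not tested.

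The family as a whole stood level on day 1 and higher on days 3 and 7 on the scaled values, and lower on all 3 days before scaling between arrays. The median level of the 89 members was 5.28 and 5.36 on the normoxia arrays, 5.34 and 5.33 at day 1, 5.57 and 5.55 at day 3 and 5.74 and 5.72 at day 7. Day 1 lay within the normoxia range, and the groups of day 3 and day 7 overlapped neither normoxia nor each other. The neighbours took almost the same course, at 5.25 and 5.30 in normoxia, 5.27 and 5.26 at day 1, 5.51 and 5.49 at day 3 and 5.68 and 5.69 at day 7. In 78 of 89 members the change against normoxia was smallest on day 1 and largest on day 7. The median change of the neighbours had the same order, at -0.01, 0.23 and 0.43, and the share over all tested genes was not counted.

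The direction of the family depends on the scale, because the arrays themselves became dimmer. Before scaling, the median processed signal of the members was 104241 and 95158 in normoxia, 89402 and 90234 at day 1, 81003 and 73237 at day 3 and 75025 and 73591 at day 7, and was thus lower on every exposed array than on both normoxia arrays. The 75th percentile of all probes dropped further, from 2684 and 2321 in normoxia to 2214 and 2247 at day 1, 1710 and 1566 at day 3 and 1407 and 1393 at day 7. The scaled rise on days 3 and 7 is this difference, a smaller loss of signal than that of the array as a whole. Against 7 spike-in control probes (E1A, of 10 on the array, those well above background and not saturated), the median log2 signal of the members differed from the normoxia mean by 0.35 and 0.37 on the day 1 arrays, by -0.09 and -0.03 on day 3 and by -0.28 and -0.25 on day 7. On that scale the members were therefore above normoxia on day 1 and below it on day 7. The 75th percentile of all probes shifted too when set against these controls. Relative to normoxia, its day 1 arrays gave 0.33 and 0.36. Its day 3 values were -0.34 and -0.26, while those of day 7 were -0.69 and -0.66. The day 1 shift of the members was thus close to that of the array as a whole. Their day 7 fall was smaller than that of the array. How the spike-in was added is not given in the sources used here. All changes below are on the 75th percentile scale, on which the median of all tested genes was -0.07, -0.05 and -0.03 on days 1, 3 and 7, unless another scale is named.

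**Figure D1:**
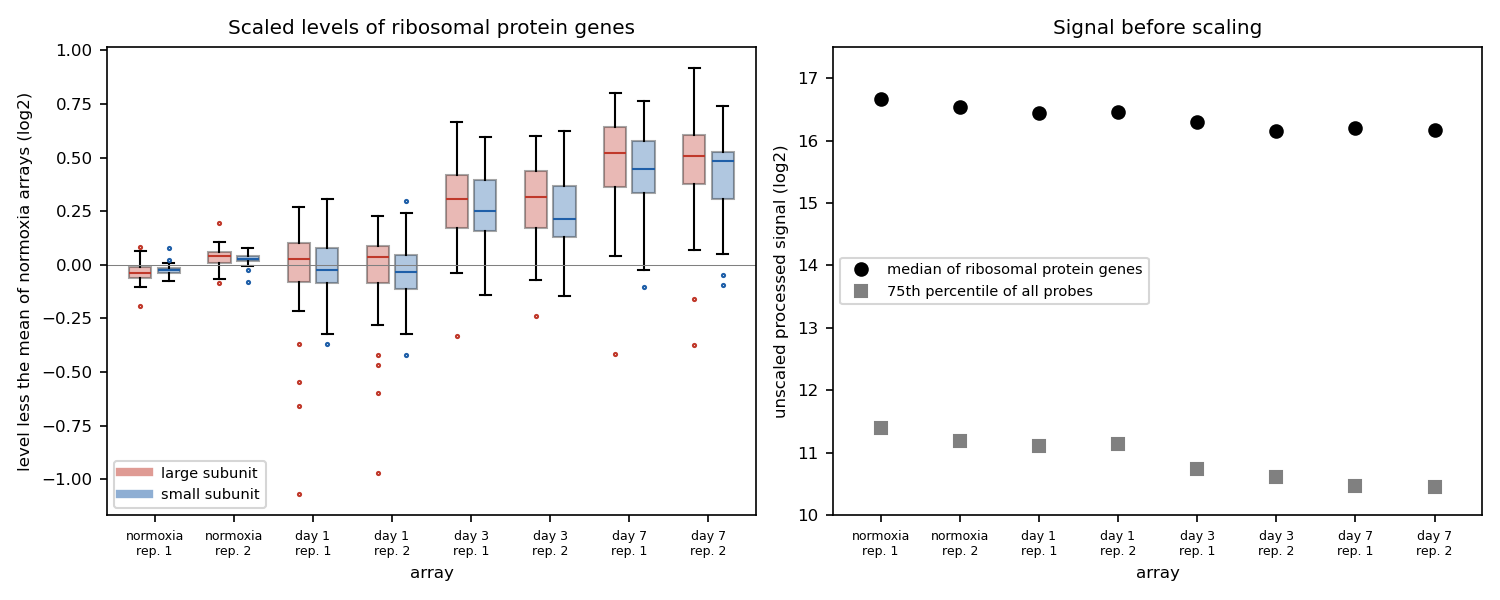
Left, scaled log2 levels of the 55 large and 34 small subunit genes on each of the 8 arrays, each gene less its normoxia mean (boxes, quartiles with the median line; whiskers, the last gene within 1.5 box lengths; circles, genes beyond). Right, the median member and the 75th percentile of all probes as log2 processed signal before scaling: both fell from normoxia to day 7, the percentile by more, so that the scaled boxes of day 3 and day 7 lie above 0 while the unscaled medians lie below normoxia.

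The comparison of day 1 with normoxia asked what had changed after 1 day of exposure. Of the 89 members, 16 (18.0%) were called, 6 higher and 10 lower, where 35.5% of all 21296 tested genes were called (15.3% higher and 20.2% lower). The median change was -0.02, against -0.01 for the neighbours, and 43 of 89 members lay above their neighbours. In the large subunit 4 genes rose and 6 fell, and in the small subunit 2 rose and 4 fell. When normoxia replicate 1 was left out 7 members were called, and leaving out day 1 replicate 1 or day 1 replicate 2 gave 5 or 6. Members called higher went from 6 to 1 without normoxia replicate 1 and to 0 without either day 1 array or with the normoxia and day 1 groups fitted alone, so that Rpl37, Rps14, Rpl6 and Rpl27a, described next, lost their calls in each of these settings.

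Rpl37 was among the members that rose on day 1. Its level was 1.90 and 2.02 in normoxia, 2.23 and 2.19 at day 1, 2.41 and 2.49 at day 3 and 2.64 and 2.64 at day 7. The 4 groups did not overlap. Rpl37 of the large subunit, whose probe now belongs to Rpl37l1 by its accession, rose by 0.25 ± 0.06 (adjusted p = 0.0227). Rps14, which helps to form the platform of the small subunit, rose by 0.22 ± 0.05, Rpl6 by 0.19 ± 0.05 and Rpl27a by 0.15 ± 0.03. Rpl27a, Rpl37 and Rps14 were the 3 members called higher in all 3 comparisons with normoxia.

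Among the falls on day 1 were several genes that returned later. Rpl10a of the large subunit was at 5.13 and 5.23 in normoxia, 4.81 and 4.76 at day 1, 5.15 and 5.11 at day 3 and 5.41 and 5.56 at day 7. The day 1 arrays lay below all others and the day 7 arrays above all others, and the changes were -0.40 ± 0.06 on day 1 (adjusted p = 0.00855) and 0.30 ± 0.06 on day 7 (adjusted p = 0.0104). Rps28, which lies near the exit of the messenger RNA channel, showed 5.22 and 5.23 in normoxia, 4.98 and 4.81 at day 1, 5.38 and 5.30 at day 3 and 5.61 and 5.47 at day 7. Its day 1 pair was the lowest, at -0.33 ± 0.08 (adjusted p = 0.0259), and its day 7 pair the highest, at 0.31 ± 0.08 (adjusted p = 0.0186). Rps25, which certain viral and cellular messages need to start translation from inside the transcript, fell by 0.30 ± 0.07 on day 1 (adjusted p = 0.0228) and was called higher on day 7 at 0.24 ± 0.07. On day 7 the neighbours of Rpl10a, Rps28 and Rps25 changed by 0.41, 0.41 and 0.28, in each case more than the gene itself.

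Rps26, another protein at the messenger RNA exit channel, fell on day 1 and day 3. It measured 1.64 and 1.70 in normoxia, 1.35 and 1.35 at day 1, 1.53 and 1.53 at day 3 and 1.79 and 1.72 at day 7. The arrays of day 1 and day 3 were all below normoxia, at -0.32 ± 0.04 (adjusted p = 0.00441) and -0.14 ± 0.04 (adjusted p = 0.0400), and day 7 was at 0.09 ± 0.04 (adjusted p = 0.141). The day 3 fall turned to 0.00 under median centring and to 0.10 with the probe GC trend removed. Rpl36a fell by 0.24 ± 0.06 on day 1 (adjusted p = 0.0289), a call lost when any of the 4 normoxia and day 1 arrays was left out. Its copy Rpl36al, now Rpl36al1, was at 0.01 ± 0.06 (adjusted p = 0.890), and the difference between the copies was not tested.

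The comparison of day 3 with normoxia asked the same after 3 days. Of the 89 members, 60 (67.4%) were called, 58 higher and 2 lower, where 50.3% of all tested genes were called (24.2% higher and 26.2% lower). The median change was 0.29, a 1.23-fold difference, against 0.23 for the neighbours, and 56 of 89 members lay above their neighbours, by a median of 0.07. Without any scaling between arrays, the median member change was -0.32, with no member called higher and 53 called lower. Under cyclic loess and quantile normalization, which remove a trend with brightness, the medians were 0.07 and 0.06, with 25 and 19 members higher and 8 and 9 lower.

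Large subunit genes stood further above their neighbours than small subunit genes on day 3. On the 75th percentile scale, with the direction of the family reversed before scaling, 38 of 55 large subunit genes rose and 1 fell, with a median change of 0.31, and 38 lay above their neighbours, by a median of 0.09 over all 55. Of 34 small subunit genes 20 rose and 1 fell, with a median of 0.23, and 18 lay above their neighbours, by a median of 0.01 over all 34. The difference between the subunits was not tested.

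Rpl36 of the large subunit had the largest day 3 rise, with each member taken by its brightest probe. Its level was 4.09 and 4.19 in normoxia, 4.11 and 4.26 at day 1, 4.77 and 4.74 at day 3 and 4.94 and 4.94 at day 7. Normoxia and day 1 overlapped, and day 3 and day 7 were each above all earlier arrays, with changes of 0.61 ± 0.06 (adjusted p = 0.00130) and 0.80 ± 0.06 (adjusted p = 3.06e-04). Neighbours of Rpl36 changed by 0.21 and 0.36. The other probe of Rpl36, which is dimmer, rose by less, at 0.29 (adjusted p = 0.00354) and 0.38 (adjusted p = 8.07e-04). Rpl21, also of the large subunit, was at 6.49 and 6.62 in normoxia, 6.71 and 6.69 at day 1, 7.14 and 7.10 at day 3 and 7.30 and 7.32 at day 7. Its groups of day 3 and day 7 overlapped no other, and it rose by 0.56 ± 0.05 (adjusted p = 9.54e-04) and 0.75 ± 0.05 (adjusted p = 2.07e-04), beside 0.29 and 0.48 for its neighbours.

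Small subunit genes among the largest rises of day 3 were Rps15a, its copy Rps15al1, Rpsa and Rps9. Rps15a stood at 5.39 and 5.43 in normoxia, 5.50 and 5.52 at day 1, 5.94 and 6.03 at day 3 and 6.05 and 6.15 at day 7. Day 3 and day 7 lay above the other groups, with changes of 0.58 ± 0.05 (adjusted p = 9.18e-04) and 0.69 ± 0.05 (adjusted p = 2.73e-04). Rps15al1 rose by 0.56 ± 0.04 on day 3 and 0.66 ± 0.04 on day 7, and whether the probes fully separate such copies was not tested. Rps9 was at 5.44 and 5.50 in normoxia, 5.55 and 5.46 at day 1, 6.0 and 5.98 at day 3 and 5.95 and 6.0 at day 7. Day 3 and day 7 overlapped each other above the rest, and the changes were 0.52 ± 0.05 (adjusted p = 8.55e-04) and 0.50 ± 0.05 (adjusted p = 5.10e-04), so that Rps9 had its whole rise by day 3. The neighbours of Rps9 changed by 0.25 and 0.48.

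The comparison of day 7 with normoxia gave the most calls. Of the 89 members, 82 (92.1%) were called, 81 higher and 1 lower, where 61.3% of all tested genes were called (31.5% higher and 29.7% lower). The median change was 0.48, a 1.39-fold difference, against 0.43 for the neighbours, and 60 of 89 members lay above their neighbours, by a median of 0.05. Without scaling between arrays the median member change was -0.36, with none called higher and 57 lower. Cyclic loess and quantile normalization gave medians of 0.06 and 0.09, with 28 and 34 members higher and 8 and 7 lower. On the 75th percentile scale 51 of 55 large subunit genes rose and 1 fell, with a median change of 0.52 and 41 genes above their neighbours. The small subunit had 30 of 34 genes higher and none lower, with a median of 0.46 and 19 genes above their neighbours.

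**Figure D2:**
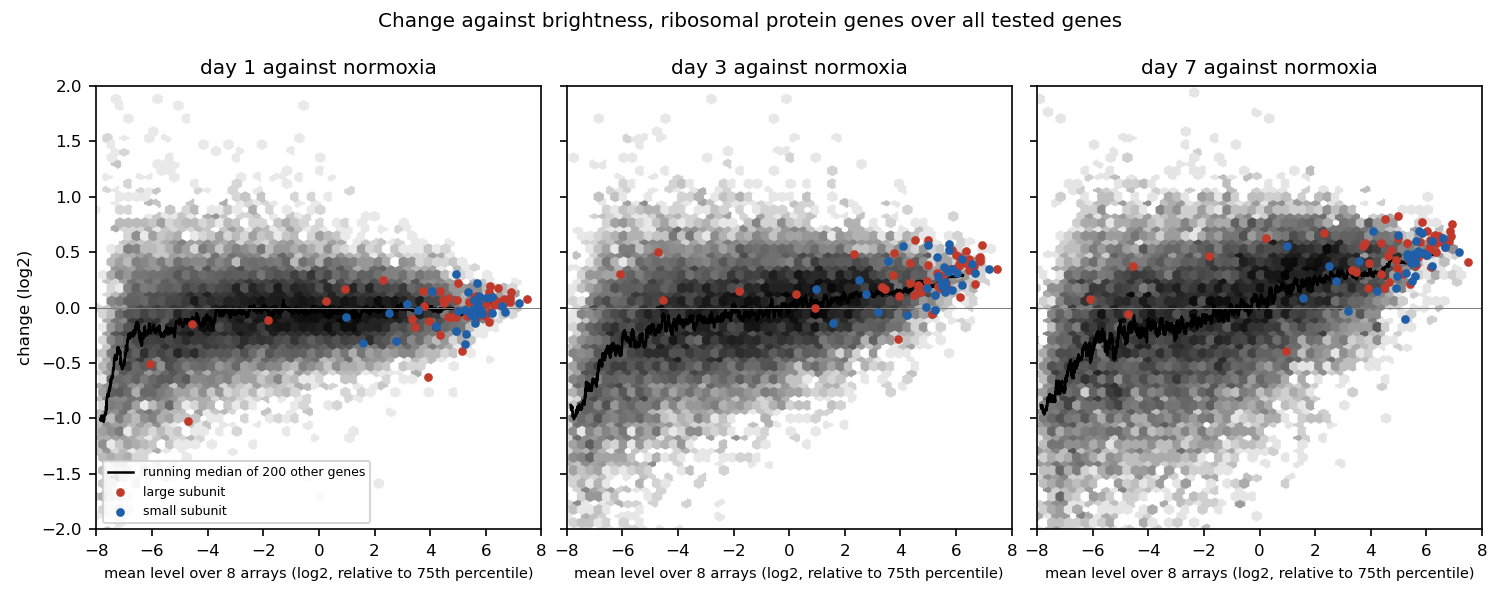
Log2 change against normoxia (vertical axis, shown from -2 to 2) by mean scaled log2 level over the 8 arrays (horizontal axis) for all tested genes (grey density) with large subunit genes in red and small subunit genes in blue; the black line is the running median of 200 other genes. The line climbs with brightness on day 3 and day 7, and most members lie near it, with medians of 0.29 and 0.48 on this scale, which were -0.32 and -0.36 without scaling between arrays.

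Rpl22, an RNA-binding protein of the large subunit that the ribosome can do without, had the largest day 7 rise. It measured 4.51 and 4.64 in normoxia, 4.80 and 4.79 at day 1, 5.24 and 5.12 at day 3 and 5.31 and 5.49 at day 7. No groups overlapped, and the changes were 0.22 ± 0.08 on day 1 (adjusted p = 0.103), 0.61 ± 0.08 on day 3 (adjusted p = 0.00318) and 0.83 ± 0.08 on day 7 (adjusted p = 6.77e-04), with neighbours at -0.04, 0.21 and 0.42. Rpl22l1, its copy, followed another course at 4.11 and 4.09 in normoxia, 3.44 and 3.50 at day 1, 3.77 and 3.86 at day 3 and 4.18 and 4.39 at day 7. Day 1 was the lowest group, day 3 came next, and only day 7 was above normoxia. The changes of Rpl22l1 were -0.63 ± 0.08 (adjusted p = 0.00387), -0.29 ± 0.08 (adjusted p = 0.0316) and 0.18 ± 0.08 (adjusted p = 0.104). The other probe of Rpl22 was at -0.03, 0.34 and 0.44 on days 1, 3 and 7, of the other sign on day 1, and that of Rpl22l1 was at -0.45, -0.17 and 0.23.

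Rpl5 and Rpl11 bind the 5S ribosomal RNA together and, outside the ribosome, hold back Mdm2, the protein that degrades p53. Rpl11 was at 5.48 and 5.54 in normoxia, 5.55 and 5.62 at day 1, 6.02 and 6.04 at day 3 and 6.24 and 6.32 at day 7. Day 3 and day 7 overlapped no other group, with changes of 0.51 ± 0.05 (adjusted p = 9.54e-04) and 0.77 ± 0.05 (adjusted p = 1.52e-04). Rpl5 measured 4.48 and 4.56 in normoxia, 4.59 and 4.61 at day 1, 4.73 and 4.70 at day 3 and 4.70 and 4.79 at day 7. It rose by 0.20 ± 0.05 on day 3 (adjusted p = 0.0197) and 0.23 ± 0.05 on day 7 (adjusted p = 0.00947), less than its neighbours at 0.24 and 0.37. Whether Rpl5 and Rpl11 differ in their change was not tested, and under quantile normalization and cyclic loess the day 7 value of Rpl5 was -0.11 and -0.14.

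The stalk proteins Rplp0, Rplp1 and Rplp2 bring elongation factors to the large subunit. Rplp0, the base of the stalk, stood at 6.46 and 6.48 in normoxia, 6.50 and 6.52 at day 1, 6.74 and 6.63 at day 3 and 7.12 and 6.91 at day 7. Its day 3 change of 0.21 ± 0.08 missed the threshold (adjusted p = 0.0827), and its day 7 change was 0.54 ± 0.08 (adjusted p = 0.00276). Rplp1 also passed on day 7 alone of the 3 comparisons with normoxia, at 0.43 ± 0.09 (adjusted p = 0.0106). Rplp2 rose on both days, by 0.45 ± 0.05 (adjusted p = 0.00150) and 0.60 ± 0.05 (adjusted p = 3.17e-04). Rpl12, which lies at the base of the stalk, rose by 0.14 ± 0.04 and 0.52 ± 0.04.

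Other large subunit genes among the largest day 7 rises were Rpl13, at 0.69 ± 0.07 (adjusted p = 7.55e-04), and Rpl35, which lines the exit of the peptide tunnel, at 0.69 ± 0.06 (adjusted p = 3.88e-04). Rpl15 rose mainly after day 3, as did Rpl12 and Rps27l. It was measured by 1 probe, dim for a member, that starts at base 1863 of its transcript. Its level was 0.08 and -0.01 in normoxia, 0.12 and 0.07 at day 1, 0.17 and 0.15 at day 3 and 0.68 and 0.65 at day 7. Both later groups lay above the earlier arrays, day 3 narrowly at 0.13 ± 0.05 (adjusted p = 0.0742) and day 7 with a change of 0.63 ± 0.05 (adjusted p = 2.37e-04) where its neighbours changed by 0.05, the widest gap above neighbours among the members. Rpl13a and Rpl19, often used as reference genes, rose by 0.55 ± 0.06 and 0.57 ± 0.07 on day 7, and so did Rps18, another such gene, by 0.40 ± 0.04, which turned to -0.042 under quantile normalization and -0.032 under cyclic loess.

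Rpsa, a small subunit protein also known as the laminin receptor, was at 3.71 and 3.75 in normoxia, 3.83 and 3.93 at day 1, 4.28 and 4.29 at day 3 and 4.49 and 4.34 at day 7. All exposed arrays were above normoxia, and days 3 and 7 above day 1, with changes of 0.15 ± 0.06 (adjusted p = 0.139), 0.55 ± 0.06 (adjusted p = 0.00176) and 0.69 ± 0.06 (adjusted p = 4.94e-04). Rps6, the substrate of the S6 kinases below mTOR, stood at 5.09 and 5.16 in normoxia, 5.28 and 5.25 at day 1, 5.42 and 5.40 at day 3 and 5.51 and 5.63 at day 7. Its 4 groups did not overlap, and the changes were 0.14 ± 0.06 (adjusted p = 0.102), 0.29 ± 0.06 (adjusted p = 0.00938) and 0.44 ± 0.06 (adjusted p = 0.00134), close to 0.21 and 0.42 for its neighbours on days 3 and 7. Rps27a, made as a fusion with ubiquitin, was at 0.15 ± 0.05 on day 3 (adjusted p = 0.0635) and rose by 0.47 ± 0.05 on day 7 (adjusted p = 9.29e-04).

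A few members did not rise with the rest. The 8 that were not called higher on day 7 were Rpl17l1, Rpl22l1, Rpl39l, Rpl7l1, Rps13, Rps16, Rps26 and Rps4x, of which the last 4 are small subunit genes with no suffix for a copy. Rps16 was at 5.23 and 5.33 in normoxia, 5.36 and 5.16 at day 1, 5.30 and 5.22 at day 3 and 5.18 and 5.19 at day 7. Its arrays overlapped on day 1 and day 3, and the day 7 difference was -0.10 ± 0.08 (adjusted p = 0.316), beside 0.41 for its neighbours. The other probe of Rps16, which is dimmer, was called lower on days 1, 3 and 7. It was at -0.18 (adjusted p = 0.0165), -0.32 (adjusted p = 0.00160) and -0.17 (adjusted p = 0.00997). Rps4x, the X-linked copy of a small subunit protein, measured 3.19 and 3.19 in normoxia, 3.22 and 3.22 at day 1, 3.17 and 3.12 at day 3 and 3.17 and 3.14 at day 7. Its differences from normoxia were 0.03 ± 0.04, -0.04 ± 0.04 and -0.03 ± 0.04, the last with an adjusted p of 0.456, while its neighbours were at 0.31. With median centring and with the GC trend removed, the day 7 value of Rps4x was 0.26 and 0.15.

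**Figure D3:**
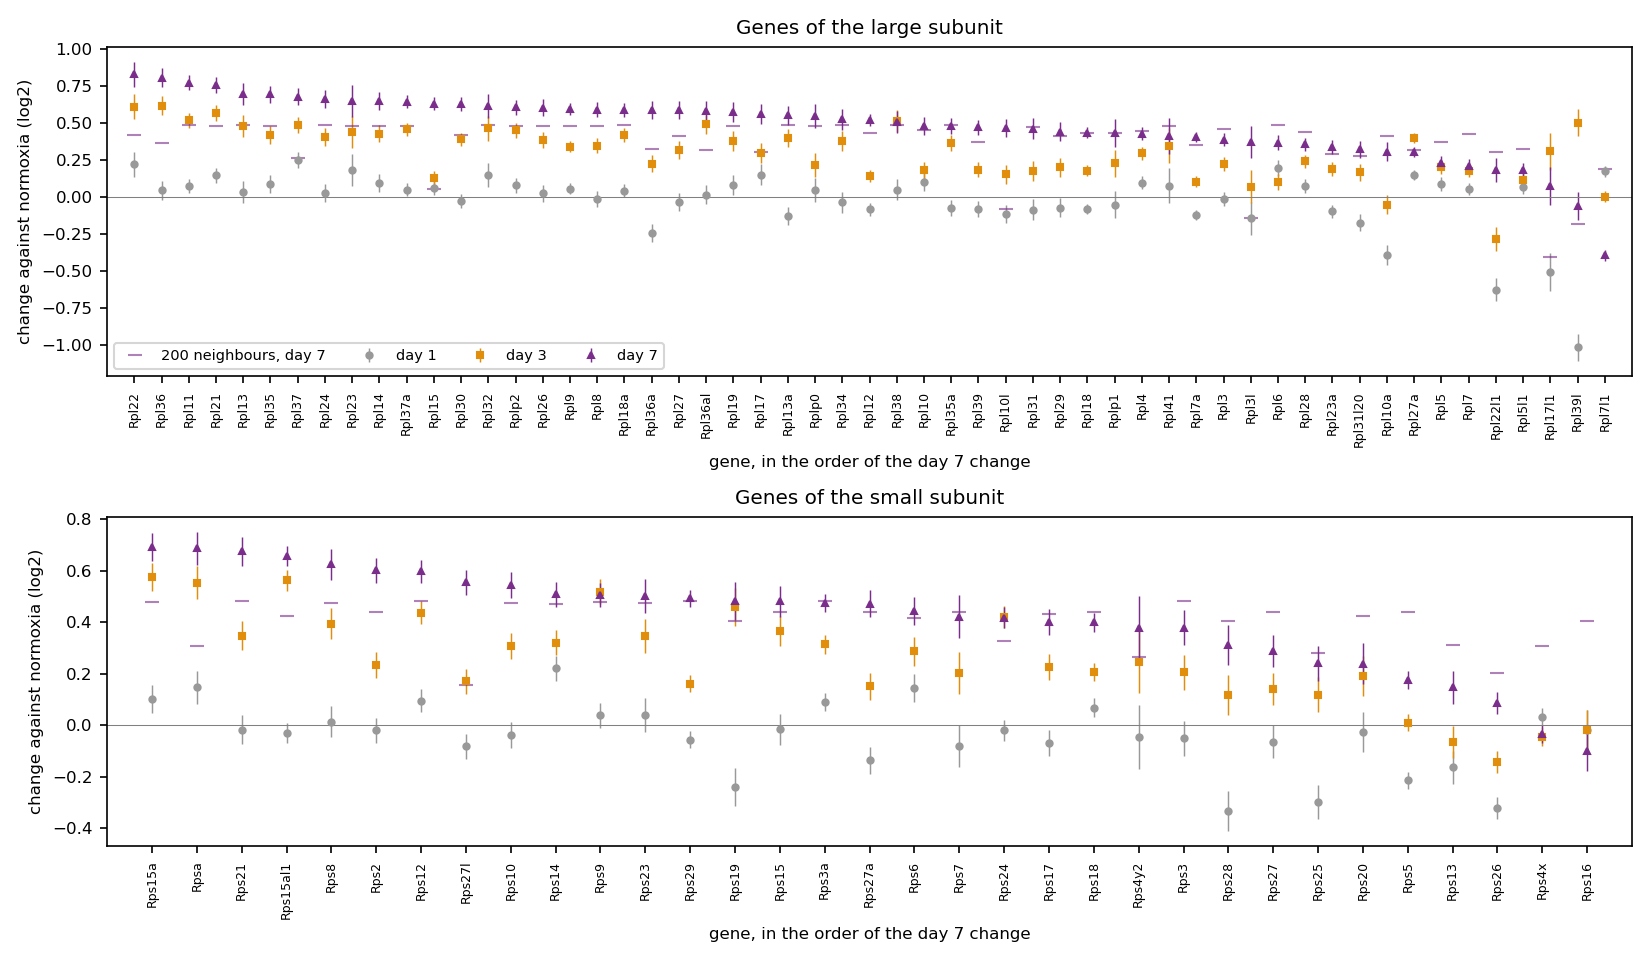
Log2 change against normoxia ± SE (2 arrays per group) of each of the 55 large subunit genes (top) and 33 of the 34 small subunit genes (bottom) on day 1 (grey), day 3 (orange) and day 7 (purple), on the 75th percentile scale, with the median day 7 change of each gene's 200 neighbours as a dash. Rpl22 is highest at 0.83 and Rpl7l1 lowest at -0.40 on day 7. Without scaling between arrays the members' day 7 median was -0.36.

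The copies of ribosomal protein genes varied most. Rpl39l, now Rpl39l1, encodes a copy of Rpl39 that is known from testis, and its probe lies in the coding part at chr10:5409629-5409688 (rn4). It is printed with the coding probe of Rpl39 at chrX:7825973-7827753 because a probe for 1 copy can pick up the other. The capitals mark the longest run the 2 probes share, of 9 bases. The probes cover largely different stretches, and neither was compared with the message of the other copy. The run therefore does not show whether either probe picks up that copy.
Rpl39 coding: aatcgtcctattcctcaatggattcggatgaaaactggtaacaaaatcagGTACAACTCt
Rpl39l: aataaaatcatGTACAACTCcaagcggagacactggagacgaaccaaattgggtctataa
Rpl39l was dim, at -4.65 and -4.48 in normoxia, -5.63 and -5.54 at day 1, -4.11 and -4.02 at day 3 and -4.53 and -4.73 at day 7. Day 1 was the lowest group and day 3 the highest, and day 7 overlapped normoxia. The changes against normoxia were -1.02 ± 0.09 (adjusted p = 0.00151), 0.50 ± 0.09 (adjusted p = 0.00871) and -0.06 ± 0.09 (adjusted p = 0.608). Rpl39 was at -0.09 ± 0.05, 0.18 ± 0.05 and 0.47 ± 0.05 in the same comparisons on its brightest probe, the last 2 called. The Rpl39 coding probe printed above, which is dimmer, fell by 0.42 on day 1 (adjusted p = 0.00415), was at -0.07 on day 3 (adjusted p = 0.335) and rose by 0.29 on day 7 (adjusted p = 0.00639), so the probes of Rpl39 did not share 1 course on day 1. On summed levels the choroid plexus markers were also lowest on day 1 and highest on day 3, with day 7 between. Against normoxia their median change was -0.20 on day 3, with 3 called higher and 3 lower, and -3.41 on day 7. Their part in the course of Rpl39l was not tested.

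Rpl7l1, a nucleolar relative of Rpl7, was the only member called lower on day 7, a call lost with median centring and with the GC trend removed. It stood at 0.99 and 1.01 in normoxia, 1.14 and 1.19 at day 1, 0.99 and 1.00 at day 3 and 0.58 and 0.62 at day 7. Day 1 was the highest group and day 7 the lowest, with changes of 0.17 ± 0.04 (adjusted p = 0.0220), 0.00 ± 0.04 (adjusted p = 0.975) and -0.40 ± 0.04 (adjusted p = 5.34e-04). Rpl7 itself rose by 0.17 ± 0.04 on day 3 and 0.21 ± 0.04 on day 7, and was below 0 on both days with quantile normalization and cyclic loess. The other probe of Rpl7, almost as bright at 5.40 against 5.41, rose by 0.35 (adjusted p = 0.00600) and 0.60 (adjusted p = 6.12e-04), so the size of the rise rests on the choice of probe. Rps27l, a p53 target and a copy of Rps27, was at 0.80 and 0.83 in normoxia, 0.74 and 0.72 at day 1, 1.02 and 0.95 at day 3 and 1.42 and 1.32 at day 7. Its groups did not overlap, and it rose by 0.17 ± 0.05 (adjusted p = 0.0352) and 0.56 ± 0.05 (adjusted p = 4.05e-04) on days 3 and 7, against 0.02 and 0.16 for its neighbours. The day 3 value was -0.07 with the GC trend removed. Rps27 was at 0.14 ± 0.06 (adjusted p = 0.124) and 0.29 ± 0.06 (adjusted p = 0.0115), the latter turning to -0.18 with quantile normalization and -0.14 with cyclic loess.

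Rpl10l, now Rpl10l1, and Rpl3l, which serve testis and muscle in place of Rpl10 and Rpl3, passed on day 7, at 0.46 ± 0.06 (adjusted p = 0.00180) and 0.37 ± 0.11 (adjusted p = 0.0309). The upstream probe of Rpl10l went the other way on day 7, at -0.60 (adjusted p = 0.00997), so its direction rests on the choice of probe. Rpl10 rose by 0.48 ± 0.06 and Rpl3 by 0.38 ± 0.05 on day 7, and Rpl3 turned to -0.089 with quantile normalization and -0.051 with cyclic loess. Rpl17l1 was at -0.51 ± 0.13 on day 1 (adjusted p = 0.0319), with 0.31 ± 0.13 and 0.07 ± 0.13 later. Rps4y2, listed as a Y-type copy of Rps4x, passed on day 7 at 0.38 ± 0.12 (adjusted p = 0.0434). The other probe of Rps4y2, which is dimmer, was called higher on days 1, 3 and 7, at 0.38, 0.49 and 0.56. Rpl36al rose by 0.49 ± 0.06 on day 3 and 0.58 ± 0.06 on day 7.

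Rpl36a had 4 probes, of which 2 overlap by 57 bases and differ at 3 of them, marked in capitals. They are shown because both carry the same gene name and their target lies at chrX:122042681-122043808 and chrX:122042684-122043811 (rn4).
Rpl36a from base 171: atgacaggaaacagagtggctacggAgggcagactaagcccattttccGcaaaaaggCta
Rpl36a from base 174: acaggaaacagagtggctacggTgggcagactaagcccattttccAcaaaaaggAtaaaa
The pair gave day 7 changes of 0.28 (adjusted p = 0.00269) and 0.37 (adjusted p = 0.00243). The brightest Rpl36a probe gave 0.59 (adjusted p = 6.93e-04), and the fourth, which was not well above background on all arrays, gave -1.12 (adjusted p = 0.123).

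Probe position in the transcript went with the measured change across the family on days 3 and 7. For 40 members with kept probes of 1 transcript at least 60 bases apart, the most downstream probe was set against the most upstream one. Values of single probes come from the same limma fit on 24678 probes, with p-values adjusted over them. The signed change was higher on the downstream probe in 24 of 40 genes on day 1, in 31 on day 3 and in 31 on day 7. The median day 7 change was 0.56 on downstream and 0.29 on upstream probes, and on day 3 it was 0.33 and 0.15. The order was not particular to ribosomal protein genes: among 2489 other genes with such probes the downstream value was the higher in 47.9%, 73.9% and 77.8%, and among 200 of them with a probe at level 4 or above in 45.5%, 83.5% and 87.0%.

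Rps2, which lies at the entry of the messenger RNA channel, shows this with the probes printed above. Its upstream probe was at 3.43 and 3.52 in normoxia, 3.49 and 3.56 at day 1, 3.55 and 3.68 at day 3 and 3.40 and 3.56 at day 7. These groups overlapped, with a day 7 change of 0.01 (adjusted p = 0.942). The downstream probe was at 5.36 and 5.46, 5.38 and 5.40, 5.66 and 5.62, and 6.04 and 5.98 in the same order, and its day 7 arrays stood above all others at 0.60 (adjusted p = 3.50e-04). Another Rpl37a probe, on another accession and at another chromosome, is left out of the pair and fell by 0.21 on day 7 (adjusted p = 0.0239). On the paired probes Rpl37a had 4.77 and 4.80 in normoxia, 4.59 and 4.60 at day 1, 4.80 and 4.79 at day 3 and 4.86 and 4.87 at day 7 on its upstream probe, and 6.53 and 6.63, 6.61 and 6.65, 7.04 and 7.03, and 7.22 and 7.23 on its downstream probe. On the upstream probe day 1 was lowest, day 3 overlapped normoxia and the day 7 change was 0.08 (adjusted p = 0.0902), while on the downstream probe both later groups lay above the others and the day 7 change was 0.64 (adjusted p = 2.11e-04). Rpsa and Rpl27 were alike, at 0.69 and 0.58 downstream and 0.01 and 0.08 upstream on day 7.

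Other probe properties moved with position. The downstream probe had the lower GC content in 32 of 40 genes (medians of 41.7% and 45.0%) and the brighter signal in 31, and AATAAA was in 21 downstream and 0 upstream probes. Over all 161 member probes the median day 7 change was 0.59 with AATAAA and 0.39 without, and over other probes 0.30 and -0.11. RNA was primed from its poly(A) tail with oligo-dT for labelling, and RNA integrity was not given in the sources used here. The part of priming, RNA length, probe GC and brightness in these differences was not tested.

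**Figure D4:**
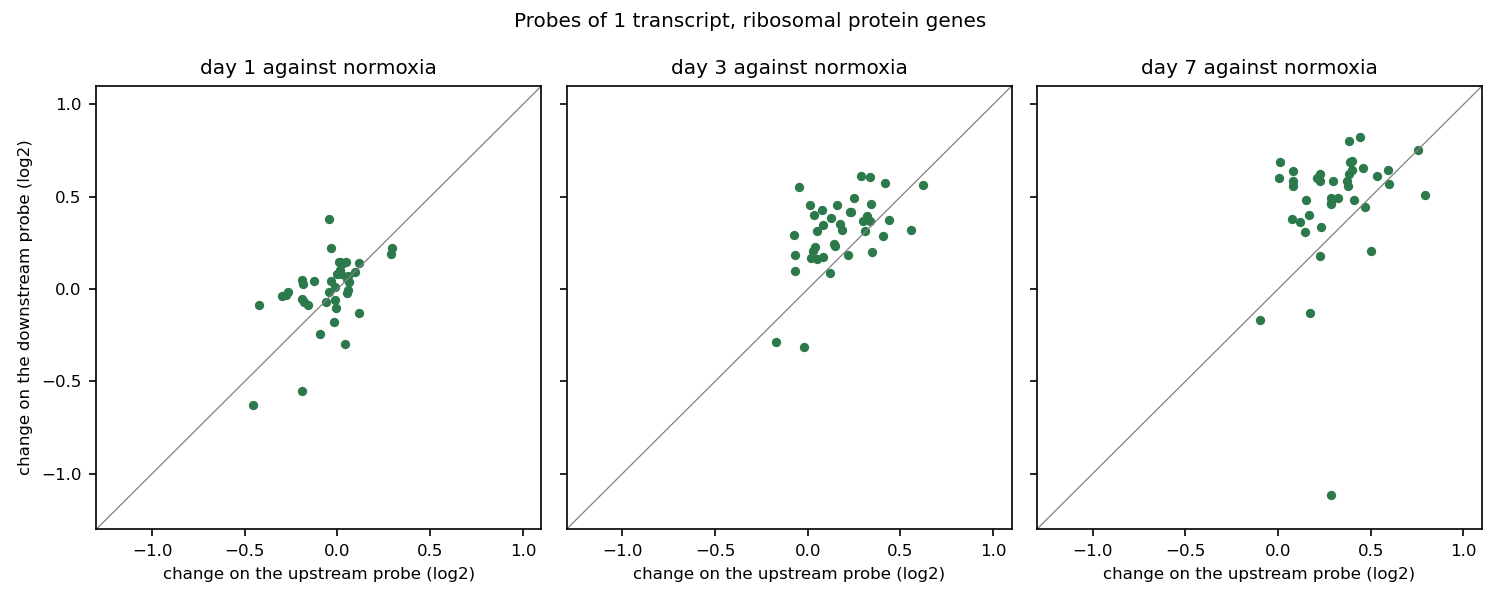
Log2 change against normoxia on the upstream probe (horizontal axis) and the downstream probe (vertical axis) of 40 ribosomal protein genes, 1 point per gene, with the line of equal change, for day 1, day 3 and day 7. On day 3 and day 7, 31 of the 40 points lie above the line.

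The steps between exposed groups were compared as well. The step from day 1 to day 3 crosses slide rows and columns. Of 89 members, 69 (77.5%) were called, 68 higher and 1 lower. Over all tested genes 51.2% were called (28.2% higher and 23.0% lower). The median step was 0.29, against 0.26 for the neighbours. Rpl39l had the largest rise, of 1.52 ± 0.09 (adjusted p = 2.86e-04), followed by Rpl17l1 at 0.81 ± 0.13 (adjusted p = 0.00461). Next came Rps19, a small subunit protein mutated in Diamond-Blackfan anaemia, with 5.11 and 5.14 in normoxia, 4.82 and 4.95 at day 1, 5.62 and 5.55 at day 3 and 5.54 and 5.68 at day 7. Its day 1 arrays were the lowest and its day 3 and day 7 arrays overlapped, with a step of 0.70 ± 0.07 (adjusted p = 0.00125). Against normoxia this probe of Rps19 was at -0.24, 0.46 and 0.48 on days 1, 3 and 7. A dimmer upstream probe of Rps19 moved less, at -0.10, 0.16 and 0.15. Rpl7l1 alone fell, by 0.17 ± 0.04, and was at 0.05 with the GC trend removed.

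The step from day 3 to day 7 lies within 1 slide row but crosses slide columns. In it 46 members (51.7%) were called, 44 higher and 2 lower. Over all tested genes 42.4% were called (24.2% higher and 18.3% lower). The median step was 0.19, against 0.18 for the neighbours, and 45 of 89 members lay above their neighbours. The largest rises were those of Rpl15 at 0.50 ± 0.05 (adjusted p = 0.00150), Rpl22l1 at 0.47 ± 0.08 (adjusted p = 0.00801), Rps27l at 0.39 ± 0.05 (adjusted p = 0.00338) and Rpl12 at 0.38 ± 0.04 (adjusted p = 0.00226). Rpl39l fell by 0.56 ± 0.09 and Rpl7l1 by 0.39 ± 0.04. Leaving out day 3 replicate 1 or day 3 replicate 2 gave 21 calls each, and leaving out day 7 replicate 2 gave 29.

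Ribosomal proteins with names outside the rule and the machinery around them were described from lists. Fau, which encodes a small subunit protein fused to a ubiquitin-like domain, rose by 0.31 ± 0.05 on day 3 and 0.68 ± 0.05 on day 7. Gnb2l1, the scaffold RACK1 of the small subunit, fell by 0.35 ± 0.04 and 0.25 ± 0.04. Another 193 genes on the array are described as similar to ribosomal proteins, many of them processed copies. They had 6 genes higher and 36 lower on day 1, then 78 higher against 22 lower on day 3 and 105 against 17 on day 7, with medians of -0.10, 0.15 and 0.27. Over all tested genes the shares were 15.3%, 24.2% and 31.5% higher and 20.2%, 26.2% and 29.7% lower on days 1, 3 and 7, and the list counts that follow stand beside the same shares.

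Ribosome assembly factors did not move one way. Of 48 tested, 4 rose and 11 fell on day 1, 19 rose and 12 fell on day 3, and 23 rose and 14 fell on day 7, with medians of -0.07, 0.09 and 0.16. Rrs1, which brings the 5S particle to the forming large subunit, was at -1.12 and -1.12 in normoxia, -1.10 and -1.08 at day 1, -1.51 and -1.54 at day 3 and -2.51 and -2.49 at day 7. Day 3 was below and day 7 far below the others, at -1.38 ± 0.03 (adjusted p = 2.65e-05). Sbds, which frees the large subunit for use, fell by 1.34 ± 0.05 on day 7 after a rise of 0.56 ± 0.05 on day 1, and Bop1, a factor of large subunit RNA processing, fell by 0.96 ± 0.04. Ddx21, a nucleolar RNA helicase, rose by 0.87 ± 0.04. RNA polymerase I and its factors, which make ribosomal RNA, had 8 of 14 genes higher and 3 lower on day 7, with a median of 0.29. Ubtf, the factor that keeps ribosomal DNA open, rose by 0.63 ± 0.04, Cd3eap, a polymerase I subunit, by 0.86 ± 0.06, Taf1d by 0.85 ± 0.05 and Taf1b by 0.71 ± 0.04, the last 2 being parts of its promoter factor SL1.

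Elongation factors and other genes with TOP messages were mixed, with 9 of 14 higher and 3 lower on day 7 and a median of 0.16. Eef2, which moves the ribosome along the message, was at 4.0 and 3.98 in normoxia, 4.33 and 4.27 at day 1, 3.20 and 3.31 at day 3 and 2.75 and 2.78 at day 7. The groups did not overlap, with a rise of 0.31 ± 0.05 on day 1 and falls of 0.73 ± 0.05 on day 3 and 1.22 ± 0.05 on day 7 (adjusted p = 5.57e-05). Eef1a2, the elongation factor of neurons and muscle, fell by 0.47 ± 0.03, 0.52 ± 0.03 and 0.46 ± 0.03 on the 3 days. Eef1b2 and Tpt1, which have TOP messages too, rose by 0.53 ± 0.04 and 0.64 ± 0.06 on day 7. Of 19 genes of the mTOR and S6 kinase pathway, 8 rose and 4 fell on day 7, with a median of 0.06. Mtor, the kinase, fell by 0.73 ± 0.04, while Rps6kb2, an S6 kinase gene, rose by 0.87 ± 0.06, Myc by 0.59 ± 0.04 and Ddit4l, which holds mTOR back, by 0.53 ± 0.04. Ddit4l had fallen by 0.45 ± 0.04 on day 1 and risen by 0.97 ± 0.04 on day 3. Ddit4, on the same list, went the other way, with a rise of 0.22 ± 0.04 on day 1 and a fall of 0.55 ± 0.04 on day 7.

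Across the 89 members the Spearman correlation between change and brightness was 0.36, 0.42 and 0.47 for days 1, 3 and 7, and between change and GC content it was 0.16, -0.06 and -0.20. These are descriptions across genes of the same 8 arrays, which are not independent replicates.

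**Figure D5:**
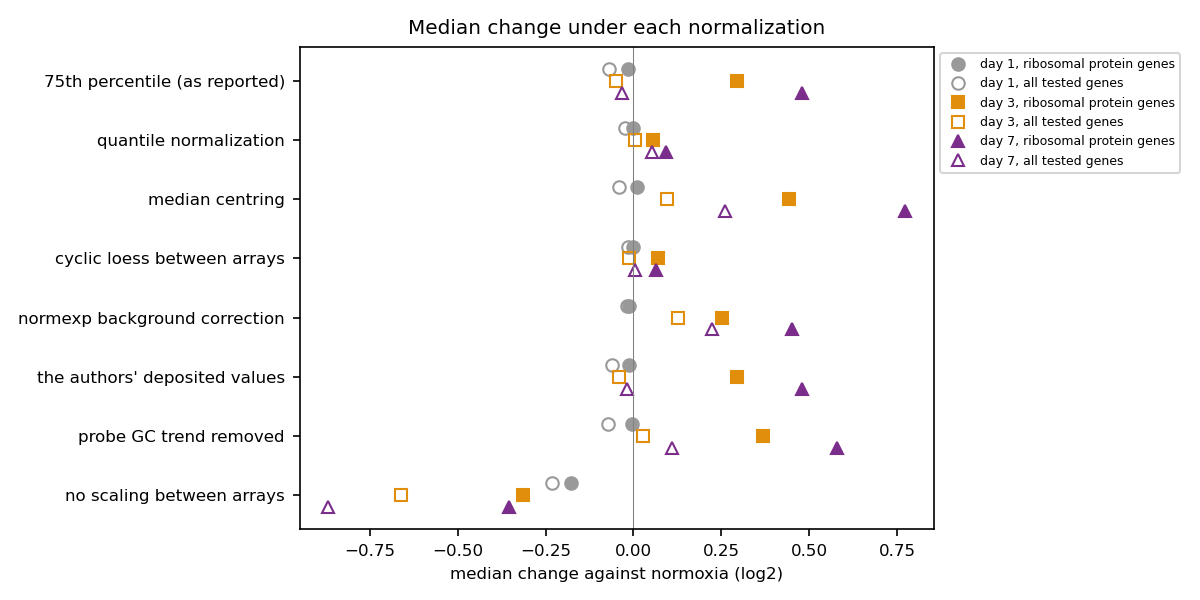
Median log2 change against normoxia of the 89 ribosomal protein genes (filled) and of all tested genes (open) on day 1 (grey circles), day 3 (orange squares) and day 7 (purple triangles) under each normalization. The day 7 median of the members is 0.48 as reported, 0.77 with median centring, 0.06 with cyclic loess and -0.36 with no scaling between arrays.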

How the data were processed

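Hippocampal RNA was labelled with Cy3 and read on 8 Agilent arrays. The deposited scanner files hold, per the file headers, spot intensity from Feature Extraction 11.5.1.1, background-subtracted and not scaled between arrays. The authors' deposited table is in log2 units, and 96.7% to 97.4% of its values lay within 0.05 of log2 processed signal minus the 75th percentile after 1 constant per array. Outlier and control spots were left out, spots of a probe averaged on the log2 scale and the 75th percentile of an array's 30367 probes subtracted. A probe was kept if some group had it well above background on both its arrays (24678 of 30346 complete probes), and the brightest stood for a gene. The fit used limma (version 3.58.1, R 4.3.3), all groups together with 4 residual degrees of freedom, and two-sided p-values were adjusted by Benjamini-Hochberg over 21296 genes in each of 5 comparisons. Arrays have no depth, and their number limits the precision.

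The members, lists and neighbours were chosen with earlier results of these data known. Named were up to 8 members with the largest rises and falls in each comparison with normoxia, up to 4 between exposed groups, fixed members such as the stalk and 5S proteins, copies with their partners, and up to 4 genes per list by p. Some genes that this rule names are not reported here. Rps16, Rps13, Rps4x and the probe pairs described were picked after their values were seen. Symbols are those of the array, with 87 of 89 members found in RefSeq (GRCr8). For 10 members the rn4 chromosome of the probe is not that of the RefSeq gene. The fit was tested on simulated data. Tables and plots were made with Python 3.11.15, pandas 2.3.3, numpy 2.4.6, matplotlib 3.10.9. Replicate numbers did not pair the arrays: deviations from the group means correlated between groups at -0.15 to 0.05.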

Additional observations from a re-analysis of the deposited data

Results flagged for a closer look

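Rpl36a and Rpl39l moved in opposite directions on day 1 and day 3, and the difference itself was tested as day 3 against day 1. Rpl36a fell by 0.24 ± 0.06 on day 1 and rose by 0.22 ± 0.06 on day 3 against normoxia, a step of 0.47 (adjusted p = 0.00227 in limma, n = 2 arrays per group). Rpl39l fell by 1.02 ± 0.09 and rose by 0.50 ± 0.09, a step of 1.52 (adjusted p = 2.86e-04). Both comparisons share the normoxia arrays. Day 1 and day 3 lay in different slide rows and columns, so neither can be told apart from group in these steps. Choroid plexus markers also were low on day 1 and near normoxia on day 3, and their part in these steps was not tested.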

How the results depend on the processing

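The median change of the members less that of their neighbours was -0.002, 0.07 and 0.05 on days 1, 3 and 7. It was 0.014, 0.10 and 0.088 with neighbours chosen by normoxia level, 0.10 and 0.10 on days 3 and 7 with 1000 neighbours, 0.058 on day 3 with normexp, -0.019 and 0.057 on days 1 and 3 with the mean of a gene's probes, and -0.017, 0.028 and 0.029 with the GC trend removed. Leaving out 1 array at a time gave -0.0079 to 0.0097, 0.055 to 0.073 and 0.052 to 0.074.

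The number of members called on days 3 and 7 against normoxia, day 3 against day 1 and day 7 against day 3 was 28, 41, 28 and 17 with quantile normalization and 33, 36, 28 and 17 with cyclic loess. Day 7 against day 3 gave 80 with median centring, 27 with normexp and 20 with those groups alone, and day 1 against normoxia gave 7 with those groups alone. With no scaling between arrays, chosen after seeing the data, day 1 against normoxia, day 3 against day 1 and day 7 against day 3 gave 8, 17 and 3. The 1-array-out ranges were 5 to 14 on day 1, 46 to 62 on day 3, 74 to 80 on day 7, 49 to 69 for day 3 against day 1 and 21 to 42 for day 7 against day 3. With the replicate number as a block the 5 comparisons called 15, 59, 81, 70 and 41 members.

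Some genes turned sign. On day 3, Rpl3, Rpl39, Rpl7 and Rps18 were at -0.048, -0.011, -0.040 and -0.031 with quantile normalization and at -0.014, -0.011, -0.052 and -0.026 with cyclic loess. On day 7, Rpl3, Rpl39l, Rpl5, Rpl7, Rps18 and Rps27 were at -0.089, 0.30, -0.11, -0.14, -0.042 and -0.18 with the first and at -0.051, 0.38, -0.14, -0.21, -0.032 and -0.14 with the second. Median centring put Rpl7l1, Rps26 and Rps4x at 0.15, 0.0048 and 0.10 on day 3 and Rps4x at 0.26 on day 7. Removing the GC trend put Rpl7l1, Rps26 and Rps27l at 0.24, 0.10 and -0.072 on day 3, Rps4x at 0.15 on day 7 and Rpl7l1 at 0.046 for day 3 against day 1. Normexp put Rpl39l at 0.28 and the mean of probes put Rpl10l at -0.065, both on day 7. In each case the cause was not tested. There were 2 arrays per group on 1 slide, and Rpl17l1 was the member not well above background on every array (7 of 8).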
